A study of Mus musculus with 24 samples.

Results

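Peroxisomes are small membrane-bound organelles that shorten very long and branched fatty acids by beta-oxidation and pass the shortened chains to mitochondria. The first oxidation step gives off hydrogen peroxide, which the peroxisomal matrix enzyme catalase breaks down. Matrix proteins are imported from the cytosol through a docking complex in the membrane, and membrane proteins are inserted with the help of a soluble receptor. Adipocytes of both colours hold peroxisomes, and brown adipocytes are known to be rich in them.

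The genes described here are 8 listed peroxisomal enzymes and biogenesis factors, picked by name. The list was drawn up with earlier results of these data known, so it is not independent of them. A gene was kept where a value above 0 stood in all 24 libraries, which left 7 of the 8 genes among 5035 such genes of the 22418 in the table. The kept genes were Cat (catalase), Hsd17b4 (the bifunctional enzyme that hydrates and dehydrogenates the chain), Scp2 (a gene for a peroxisomal thiolase and a sterol carrier protein), Abcd3 (a membrane transporter that carries fatty acyl chains into the peroxisome), Pex14 (a part of the docking complex), Pex19 (the receptor for membrane proteins) and Ech1 (a dienoyl-CoA isomerase found in peroxisomes and mitochondria). Pecr, a reductase of enoyl-CoA chains, had values in 22 of the 24 libraries and was left out.

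In ribosome profiling, mRNA is digested and the stretches covered by a ribosome are sequenced (ribosome-protected fragments, RPF), while RNA-seq measures the mRNA itself. Eff, the translational efficiency, is RPF over RNA. Primary brown cells were grown from the stromal vascular fraction of interscapular BAT and primary white cells from that of inguinal WAT, taken from C57BL/6 mice aged 2 to 3 weeks, and both were harvested 5 days after adipogenic induction with insulin, dexamethasone, IBMX and rosiglitazone (day 5) and before it (day 0). Tissue libraries were each made from 3 pooled male C57BL/6 mice aged 6 weeks, whose interscapular BAT and epididymal WAT (eWAT) were taken directly. Each of the 12 groups (6 conditions, RPF and RNA) had 2 libraries, and for cultures the labels do not say that these came from separate dishes, so that the spread between duplicates may be technical. The white cultures come from a subcutaneous depot and eWAT is a visceral one, so depot and the step from dish to tissue cannot be told apart.

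Levels are given in RPKM, read counts scaled to the length of the coding sequence and to the size of the library, as deposited. The reads behind them could be recovered, and each library held 217395 to 1765714 RPF reads or 3757579 to 12307823 RNA reads. The shallowest libraries were the RPF libraries of brown day 0 cells, where Pex14 had 13 and 5 reads, Pex19 10 and 7 reads, and Ech1 20 and 22 reads. Summed over 10 adipocyte markers, the RNA level was 60797 to 64407 RPKM in brown day 5 cells and 1283 to 1349.7 RPKM in brown day 0 cells, and it was 53047 to 53531 RPKM in white day 5 cells and 992 to 1017 RPKM in white day 0 cells. Summed over 10 stromal markers, it was 2314 to 2376 RPKM in brown day 5 cells and 16593 to 16862 RPKM in brown day 0 cells, and it was 5359 to 5781 RPKM in white day 5 cells and 16465 to 16544 RPKM in white day 0 cells. Of 12 brown markers only Ebf2 had a value in every library, with 36.9 and 39.2 RPKM of RNA in BAT and 18.2 and 22.4 RPKM in eWAT. The RPF sum of adipocyte markers was 3522 to 4158 RPKM in brown day 0 cells and 8321 to 8432 RPKM in white day 0 cells, above the RNA sum in both lineages. The part of these differences in any single result was not tested.

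Promoter windows of the genes with the largest or most divided results are shown here, so that the start of each gene can be set beside its values. RefSeq (GRCm38.p6) gave windows of 300 bases, from 250 before the start of the gene to 50 after it, for 5 of the 7 kept genes, and those of Cat, Abcd3 and Ech1 are printed 5′ to 3′ on the strand of the gene. They lie at chr2:103485104-103485403 (minus strand), chr3:121815253-121815552 (minus strand) and chr7:28825088-28825387 (plus strand). Capitals mark AGGTCA, the core element that nuclear receptors such as the PPAR family recognise, the CCAAT box, and the GC box GGGCGG, each searched on both strands.
Cat: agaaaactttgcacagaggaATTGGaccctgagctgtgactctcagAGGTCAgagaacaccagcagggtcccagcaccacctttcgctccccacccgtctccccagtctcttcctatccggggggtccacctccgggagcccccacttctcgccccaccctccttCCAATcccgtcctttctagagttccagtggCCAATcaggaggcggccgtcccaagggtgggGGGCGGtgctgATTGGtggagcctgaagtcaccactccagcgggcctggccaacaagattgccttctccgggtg
Abcd3: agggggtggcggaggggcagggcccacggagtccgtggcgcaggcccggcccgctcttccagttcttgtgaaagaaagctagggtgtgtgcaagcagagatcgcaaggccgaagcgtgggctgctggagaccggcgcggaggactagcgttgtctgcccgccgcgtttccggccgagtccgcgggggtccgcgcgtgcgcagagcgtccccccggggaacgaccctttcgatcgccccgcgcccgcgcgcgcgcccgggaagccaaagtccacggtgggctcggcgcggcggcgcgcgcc
Ech1: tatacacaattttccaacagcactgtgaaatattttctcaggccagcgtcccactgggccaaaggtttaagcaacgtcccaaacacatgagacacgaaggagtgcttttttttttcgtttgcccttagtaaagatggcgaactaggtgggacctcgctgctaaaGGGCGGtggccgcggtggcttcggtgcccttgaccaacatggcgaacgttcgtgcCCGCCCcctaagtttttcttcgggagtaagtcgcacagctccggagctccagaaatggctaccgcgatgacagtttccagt
The Cat window held AGGTCA 1 time, CCAAT 4 times and GGGCGG 1 time. Ech1 held GGGCGG 2 times and neither of the other motifs, and Abcd3 held none of the 3. Among the windows not printed, Scp2 held AGGTCA 1 time and GGGCGG 2 times, and Pex14 held GGGCGG 1 time. Abcd3 had a second window, also not printed, which held none of the 3. Over all 32851 windows of this length, AGGTCA stood in 16.3%, CCAAT in 37.4% and GGGCGG in 35.7%. The direct repeat of this element that PPAR and RXR bind as a pair, AGGTCANAGGTCA, was matched in Cat with 2 mismatches, a match that 3.86% of all windows held. A match is a description of the letters and not a bound site.

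In RPF, the highest level among these genes was that of Ech1 in BAT, at 2230.2 and 2335 RPKM. Pex14 was the lowest, with group means between 31.6 and 90.6 RPKM. Group means of the enzymes Cat, Hsd17b4 and Scp2 ran from 72.1 to 970 RPKM. In eWAT the means of Cat (741) and Scp2 (725) stood above that of Ech1 (689). The same held in brown day 0 cells, at 125 for Cat and 130 for Scp2 against 93.4 for Ech1. Ech1 covered the widest range. Its mean RPF fell in the order BAT, brown day 5, white day 5, eWAT, white day 0, brown day 0, with no overlap between neighbours and a highest group 24.4 times the lowest. Its RNA kept the same order for the first 4 conditions and spanned 29.4 times, with the duplicates of brown and white day 0 cells overlapping. Pex14 and Pex19 covered the narrowest RPF range, with 2.87 and 2.97 times between the highest and the lowest group. For Pex19 RPF the duplicates of white day 5 cells and eWAT overlapped, and so did those of white and brown day 0 cells.

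**Figure D1:**
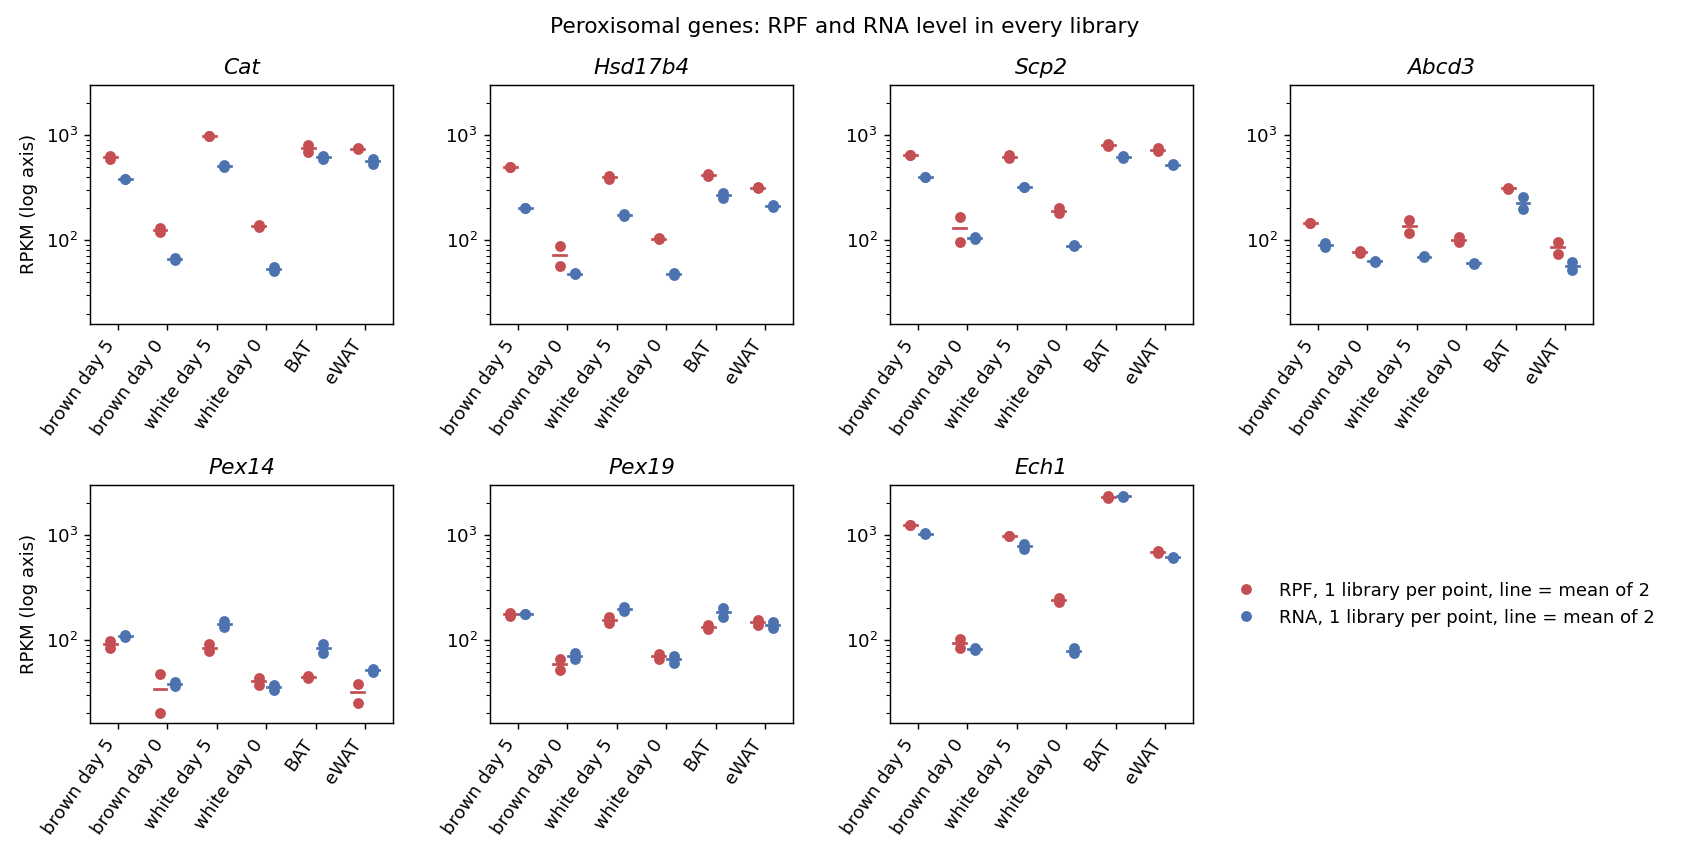
RPKM of RPF (red) and RNA (blue) of the 7 genes in each of the 24 libraries, on a log axis, with the 2 libraries of a group as points and their mean as a line. Day 5 cells lie above day 0 cells for most genes. BAT stands above all other conditions in both readouts for Ech1 (2230.2 and 2335 RPKM of RPF), Abcd3 (308 and 312 RPKM) and, by less, Scp2 (786 and 811 RPKM).

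To see how these genes moved during adipogenesis, day 5 cells were compared with day 0 cells within each lineage. In brown cells all 7 genes rose in RPF and all 7 in RNA. In white cells 6 of 7 rose in each, and Abcd3 was the exception. In the background, 26.0% of the 5035 genes rose and 34.7% fell in brown RPF, and 29.7% rose and 44.9% fell in brown RNA. In white cells 16.7% rose and 36.1% fell in RPF, and 27.5% rose and 53.4% fell in RNA. The median log2 change of the 7 genes was 2.29 in brown RPF and 1.71 in white RPF, while that of all genes was -0.16 and -0.38.

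Among the enzymes, Ech1 rose most in brown cells. It had 1245 and 1229 RPKM of RPF in brown day 5 cells, against 83.9 and 103 RPKM in brown day 0 cells. In RNA it had 1026 and 1017 RPKM in brown day 5 cells, against 79.5 and 83.3 RPKM in brown day 0 cells. Both readouts were more than 10 times higher at day 5 with no overlap, at 13.3-fold in RPF (log2 3.73 ± 0.12, SE, adjusted p = 2.0e-11) and 12.6-fold in RNA (log2 3.65 ± 0.08, adjusted p = 5.7e-13). In white cells Ech1 had 965 and 975 RPKM of RPF at day 5, against 249 and 229 RPKM at day 0. The white rise was 4.07-fold in RPF (log2 2.02 ± 0.12, adjusted p = 1.1e-08) but 9.83-fold in RNA (log2 3.30 ± 0.08, adjusted p = 1.2e-12), where the libraries held 733 and 818 RPKM at day 5, against 82.8 and 74.9 RPKM at day 0.

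Catalase showed the opposite lean between lineages. Cat had 630 and 592 RPKM of RPF in brown day 5 cells, against 130 and 119 RPKM in brown day 0 cells, a rise of 4.90-fold (log2 2.29 ± 0.11, adjusted p = 1.5e-09). In white cells it had 967 and 973 RPKM at day 5, against 138 and 134 RPKM at day 0, a rise of 7.13-fold (log2 2.83 ± 0.11, adjusted p = 6.5e-10). One alternative took a share of the day 5 level off day 0 RPF, as set out with Eff, and it moved the white Cat rise to log2 3.95. The day 0 levels of the lineages were close, and the white cells ended higher. In RNA the Cat rise was 5.74-fold in brown cells and 9.62-fold in white cells.

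Hsd17b4 and Scp2 carry out the later steps of the peroxisomal cycle. Hsd17b4 had 493 and 498 RPKM of RPF in brown day 5 cells, against 87.8 and 56.3 RPKM in brown day 0 cells. It rose 7.05-fold in brown RPF (log2 2.82 ± 0.18, adjusted p = 1.3e-08) and 3.82-fold in white RPF (log2 1.93 ± 0.18, adjusted p = 9.4e-07). Scp2 rose 5.13-fold in brown RPF (log2 2.36 ± 0.19, adjusted p = 2.2e-07) and 3.27-fold in white RPF (log2 1.71 ± 0.19, adjusted p = 7.7e-06). The RNA rises of these enzymes were closer between the lineages, at 4.19-fold in brown and 3.59-fold in white cells for Hsd17b4 and at 3.84-fold in brown and 3.63-fold in white cells for Scp2.

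The biogenesis factors Pex14 and Pex19 rose less than the enzymes in RPF of both lineages and in brown RNA, but in white RNA the Pex14 rise was above those of Hsd17b4 and Scp2. Pex14 had 84.4 and 96.8 RPKM of RPF in brown day 5 cells, against 47.5 and 20.4 RPKM in brown day 0 cells, and it rose 2.91-fold (log2 1.54 ± 0.33, adjusted p = 0.0012). In white RPF Pex14 rose 2.10-fold (adjusted p = 0.015), a call lost without replicate 1 of white day 5 (adjusted p = 0.085) or replicate 2 of white day 0 (adjusted p = 0.081). In RNA, with 321 to 1552 reads per culture library, it rose 2.87-fold in brown and 3.99-fold in white cells. An opposite-strand gene, Gm17029, overlaps the coding exons of Pex14 in the reference annotation, and in RNA libraries that do not mark strand the reads of the pair cannot be told apart. Pex19 rose 2.99-fold in brown RPF and 2.21-fold in white RPF, and 2.50-fold in brown RNA and 3.02-fold in white RNA.

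The transporter Abcd3 moved least. It had 144 and 145 RPKM of RPF in brown day 5 cells, against 75.0 and 79.0 RPKM in brown day 0 cells, a rise of 1.88-fold (log2 0.91 ± 0.18, adjusted p = 0.00072). In white cells it had 117 and 156 RPKM of RPF at day 5, against 95.0 and 107 RPKM at day 0. The white difference (log2 0.42 ± 0.18, interval 0.03 to 0.81, adjusted p = 0.068) did not pass, but it did without replicate 1 of white day 5 (log2 0.63, adjusted p = 0.024). In RNA Abcd3 rose 1.43-fold in brown cells (adjusted p = 0.0018), and the white difference of 1.15-fold did not pass (log2 0.21 ± 0.12, adjusted p = 0.13). Under median-of-ratios scaling, which centres the genes tested, both white differences passed, at log2 0.76 in RPF and 0.51 in RNA.

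**Figure D2:**
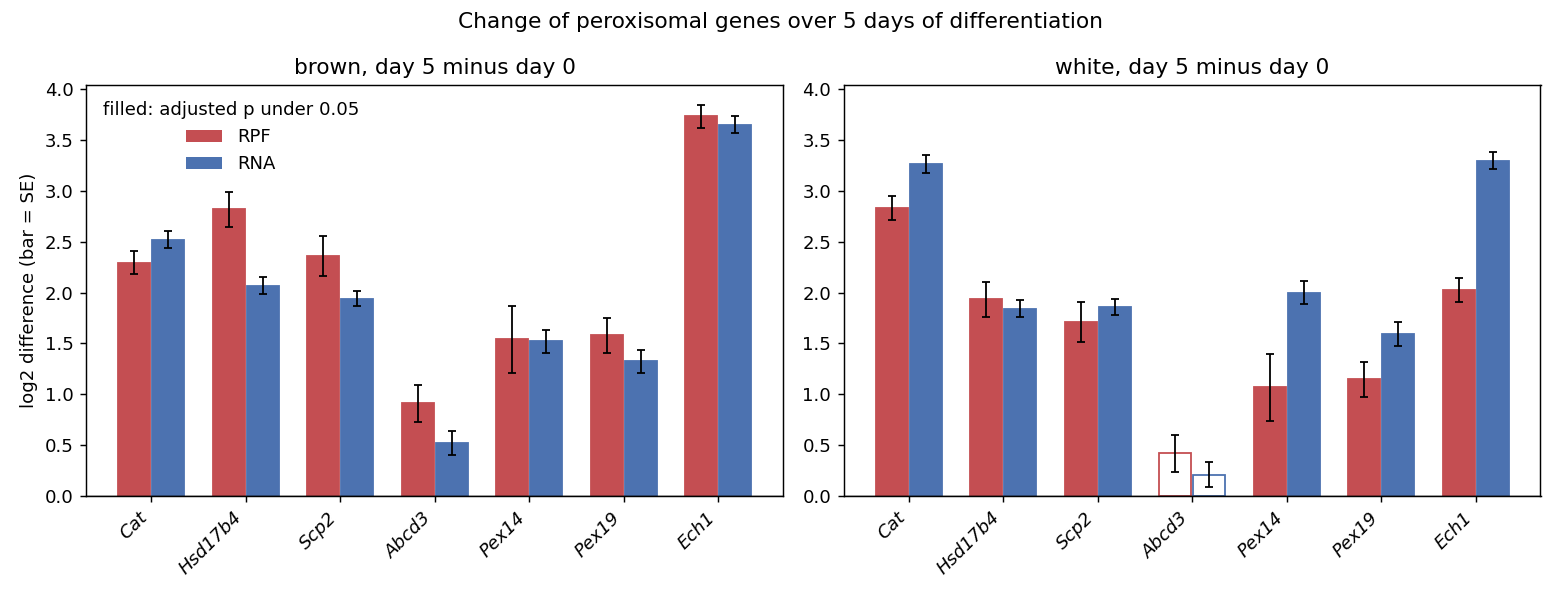
Log2 difference between day 5 and day 0 of the 7 genes in brown cells (left panel) and white cells (right panel), RPF in red and RNA in blue, with the SE as error bar and filled bars for adjusted p under 0.05. All bars stand above 0, Ech1 is highest in brown cells (3.73 in RPF) and the open bars are those of Abcd3 in white cells.

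The wider peroxisomal list held 70 further genes, of which 27 could be tested. In brown RPF 19 of the 27 rose and 4 fell (median log2 1.90), and in white RPF 19 rose and 4 fell (median log2 1.41). All 6 oxidation genes tested rose in each lineage and readout. Among these, Phyh, which prepares branched chains for oxidation, rose by log2 3.80 ± 0.24 in brown RPF. Ephx2, an epoxide hydrolase of peroxisome and cytosol, rose most of the named genes, by log2 4.38 ± 0.15 in brown RPF and 3.77 ± 0.15 in white RPF. Ether lipid synthesis was divided. Gnpat, which starts it, rose by log2 2.67 ± 0.22 in white RPF, while Far1, which supplies the fatty alcohol, fell by 1.30 on the log2 scale in brown RPF and by 1.24 in white RPF, and Agps fell by 1.08 in white RPF. Fis1, a fission adaptor that peroxisomes share with mitochondria, fell by 0.89 in brown and by 1.02 in white RPF. In RNA of brown cells 22 of the 27 rose and 4 fell, and in RNA of white cells 20 rose and 6 fell. Of 17 tested genes of mitochondrial beta-oxidation, 16 rose in brown RPF (median log2 4.02) and 16 rose in white RPF (median log2 2.59).

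Next, brown cells were set against white cells at the same day. At day 0 the 7 genes did not differ in RNA by the test, with 0 calls where 3.75% of all genes were called in either direction, and 2 genes at an unadjusted p under 0.05. Voom on the recovered reads called none of them either. When the fit held the 4 libraries compared alone, Cat and Scp2 passed at log2 0.32 and 0.23. In RPF 3 of 7 genes were lower in brown day 0 cells, where 24.9% of all genes were. Ech1 had 83.9 and 103 RPKM of RPF in brown day 0 cells, against 249 and 229 RPKM in white day 0 cells, a 2.57-fold lower level (log2 -1.36 ± 0.12, adjusted p = 6.5e-06) that passed in every alternative. Hsd17b4 (log2 -0.55 ± 0.18, adjusted p = 0.026) and Scp2 (log2 -0.60 ± 0.19, adjusted p = 0.028) were lower too, but Hsd17b4 lost its call without replicate 2 of brown day 0 (log2 -0.23) or either white day 0 library (log2 -0.55 and -0.56). Scp2 lost it without replicate 1 of brown day 0 (log2 -0.20) or either white day 0 library (log2 -0.51 and -0.69). Both calls also ended when a day 5 share was taken off day 0 RPF (log2 -0.28 for Hsd17b4 and -0.34 for Scp2), and Cat, not called otherwise, then stood at log2 0.85. Of the mitochondrial beta-oxidation genes, 15 of 17 were lower in brown day 0 RPF.

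At day 5 catalase was the gene of the 7 that passed between the lineages in RPF, and 6 of 7 passed in RNA. Cat had 630 and 592 RPKM of RPF in brown day 5 cells, against 967 and 973 RPKM in white day 5 cells, 1.59-fold lower (log2 -0.67 ± 0.11, adjusted p = 0.0021). It was the single gene of the 7 to pass in RPF, where 8.26% of all genes were lower in brown cells and none of the 27 further peroxisomal genes passed. Ech1 RPF was higher in brown cells by log2 0.35 ± 0.12 (interval 0.10 to 0.60) but did not pass (adjusted p = 0.062, limma). Cat RNA was lower as well, at 383 and 380 RPKM in brown cells, against 500 and 522 RPKM in white cells (log2 -0.42 ± 0.09, adjusted p = 0.0015). In RNA 4 of 7 genes were higher in brown day 5 cells, where 32.0% of all genes were, and 2 were lower, where 19.9% were. Ech1 was 1.32-fold higher (adjusted p = 0.0016), Scp2 1.24-fold, Abcd3 1.30-fold and Hsd17b4 1.16-fold higher, and Pex14 was 1.29-fold lower (adjusted p = 0.016). Ech1 kept its call in every alternative, and Scp2 lost it only under median-of-ratios scaling (log2 0.19, adjusted p = 0.051). Hsd17b4 lost its call without any 1 of the 4 libraries (log2 0.18 to 0.25) and with the replicate number as a block (adjusted p = 0.058). Abcd3 lost it without replicate 2 of brown day 5 or either white day 5 library (log2 0.31 to 0.40), and Pex14 without either brown day 5 library or replicate 2 of white day 5 (log2 -0.40 to -0.28). Over all 12 alternatives Hsd17b4 passed in 4 (log2 0.10 to 0.25) and Abcd3 in 7 (log2 0.24 to 0.43). Beside these differences, 9 of 10 stromal markers were lower in brown than in white day 5 cells in each readout (median log2 -1.51 in RPF and -1.25 in RNA), and so was the macrophage marker Lyz2 (log2 -2.54 in RPF and -1.94 in RNA). The signed log2 day 5 change was lower in brown than in white cells for 8 of the 10 stromal markers in RPF and 9 in RNA. All 10 fell at day 5 in brown cells in each readout. In white cells 5 fell and 2 rose in RPF, and 6 fell and 2 rose in RNA. The part of this makeup in the peroxisomal results was not tested.

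The test of the lineage difference in the day 5 change put these results side by side. In RPF the brown change exceeded the white one for 2 of 7 genes (background 20.0%), Ech1 (log2 difference 1.71 ± 0.16, adjusted p = 1.9e-05) and Hsd17b4 (0.89 ± 0.25, adjusted p = 0.017). It was smaller for Cat (-0.54 ± 0.16, adjusted p = 0.024, background 11.3%). In RNA the brown change was larger for Ech1 (0.35 ± 0.12, adjusted p = 0.035, background 21.6%) and smaller for Cat (-0.74 ± 0.12, adjusted p = 0.00085) and Pex14 (-0.48 ± 0.16, adjusted p = 0.033, background 13.7%). Cat RNA and Ech1 RPF kept their calls in every alternative. Cat RPF lost it without replicate 2 of brown day 5, either white day 5 library or replicate 2 of white day 0 (log2 -0.54 to -0.49), and Hsd17b4 RPF without replicate 2 of brown day 5 or replicate 1 of white day 5 (0.88 and 0.84). With a day 5 share taken off day 0 RPF, Cat stood at -1.51 and Hsd17b4 lost its call (0.61). These are not all the alternatives that ended the RPF calls of Cat and Hsd17b4. Over all 17 alternatives Cat RPF ran from log2 -1.51 to -0.47 and Hsd17b4 RPF from 0.56 to 1.21. The RNA calls of Ech1 and Pex14 each ended on leaving out any of several libraries, 6 for Ech1 (all but replicate 2 of white day 5 and replicate 2 of white day 0) and 5 for Pex14 (both brown day 5 libraries, replicate 2 of brown day 0, replicate 2 of white day 5 and replicate 1 of white day 0).

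BAT was then compared with eWAT. A piece of tissue holds several cell types, and fewer cells of a type cannot be told apart from less RNA per cell. The clearest differences were those of Abcd3 and Ech1. Abcd3 had 308 and 312 RPKM of RPF in BAT, against 74.5 and 96.3 RPKM in eWAT, 3.66-fold higher (log2 1.87 ± 0.18, adjusted p = 3.4e-06). In RNA it had 255 and 198 RPKM in BAT, against 62.2 and 51.7 RPKM in eWAT, 3.96-fold higher (log2 1.98 ± 0.12, adjusted p = 1.2e-08). Ech1 had 2230.2 and 2335 RPKM of RPF in BAT, against 673 and 705 RPKM in eWAT, 3.31-fold higher (log2 1.73 ± 0.12, adjusted p = 9.9e-08). The RNA difference of Ech1 was 3.80-fold (log2 1.93 ± 0.08, adjusted p = 4.4e-10). BAT and eWAT did not overlap in any of these readouts.

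These were the only 2 of 7 genes called in RPF, where 11.6% of all genes were higher in BAT. Catalase did not pass between the tissues, with 799 and 694 RPKM of RPF in BAT, against 732 and 750 RPKM in eWAT (log2 0.01 ± 0.11, interval -0.24 to 0.26), but it was lower in BAT under quantile scaling (log2 -0.58, adjusted p = 0.0020). Hsd17b4 (log2 0.40, interval 0.02 to 0.77), Scp2 (0.14, interval -0.28 to 0.56), Pex14 (0.52, interval -0.19 to 1.24) and Pex19 (-0.14, interval -0.51 to 0.22) did not pass in RPF, and voom called Hsd17b4 and Pex14. In RNA 6 of 7 genes were higher in BAT, where 19.1% of all genes were, and Cat was the exception (log2 0.12, interval -0.07 to 0.31). Besides the pair above, Pex14 was 1.62-fold higher in BAT RNA (adjusted p = 0.00011), Pex19 1.30-fold (adjusted p = 0.011), Hsd17b4 1.26-fold (adjusted p = 0.0029) and Scp2 1.18-fold higher (adjusted p = 0.011). Pex19 lost its call without replicate 2 of BAT (log2 0.24) or replicate 1 of eWAT (log2 0.28). The median gene stood at log2 -0.30 in this RNA comparison. Both scalings set that median near 0, at log2 -0.04 (median-of-ratios) and 0.05 (quantile), but moved Cat and Scp2 in opposite directions. Median-of-ratios scaling raised Cat to log2 0.38 and Scp2 to 0.50. Quantile scaling turned Scp2 to log2 -0.27 and Cat to -0.43, both past the threshold. The direction of Cat in both readouts and of Scp2 in RNA therefore rests on the scaling.

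Of the 27 further peroxisomal genes, 8 were higher in BAT by RPF and 2 lower, while 16 were higher by RNA and 3 lower. Phyh led, with log2 2.27 ± 0.24 in RPF and 2.39 ± 0.12 in RNA, and Crat, the carnitine acetyltransferase that moves short chains out of peroxisomes and within mitochondria, was higher by log2 1.65 ± 0.27 in RPF and 1.94 ± 0.09 in RNA. Acad11, an acyl-CoA dehydrogenase, was higher by log2 1.36 ± 0.21 in RPF. Far1 was lower in BAT, at log2 -1.24 ± 0.28 in RPF, and so was Fis1 (-0.55 ± 0.20). Of the mitochondrial beta-oxidation genes 16 of 17 were higher in BAT RPF, with a median log2 difference of 2.47, against 0.40 over the 7 peroxisomal genes and -0.31 over all genes. Lyz2, the only tested marker of macrophages, was lower in BAT, at 682 to 693 RPKM of RPF in BAT and 1431 to 1874 RPKM in eWAT, and stromal markers summed to 1642 to 1686 RPKM of RNA in BAT and 4618 to 5099 RPKM in eWAT. The part of this makeup in the peroxisomal results was not tested.

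**Figure D3:**
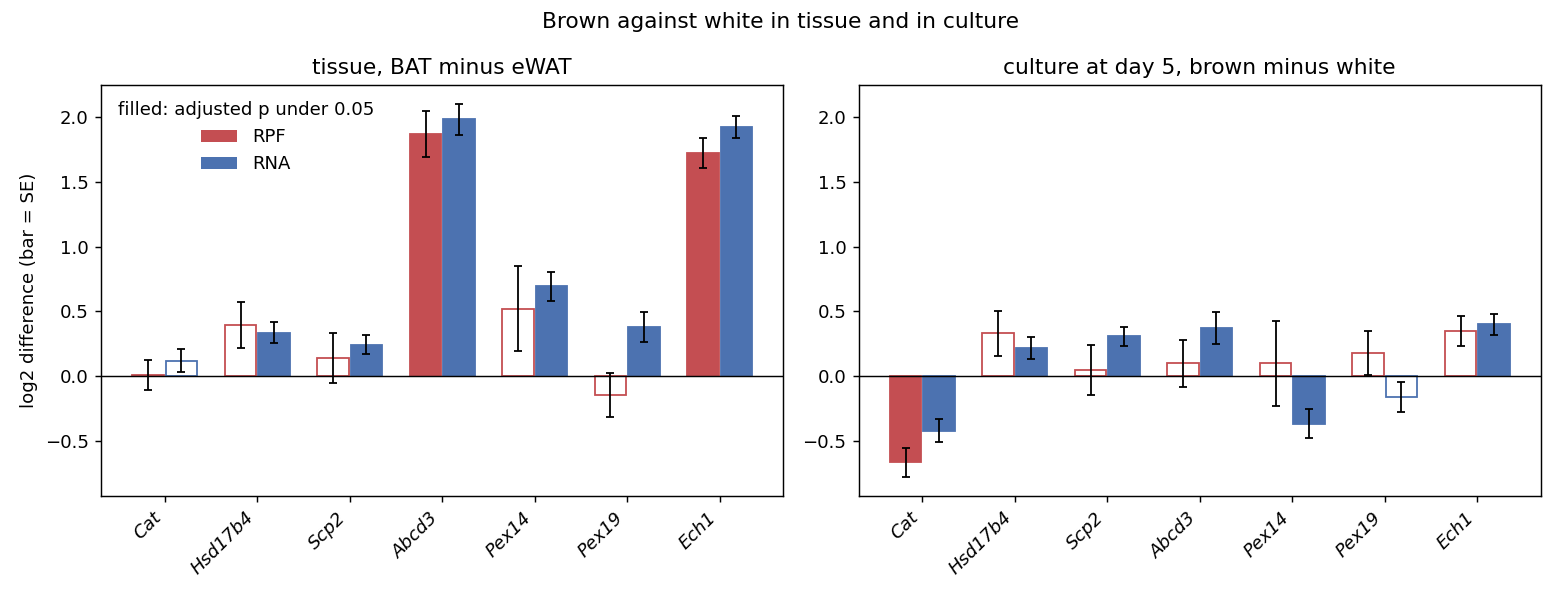
Log2 difference of the 7 genes between BAT and eWAT (left panel) and between brown and white day 5 cells (right panel), RPF in red and RNA in blue, with the SE as error bar and filled bars for adjusted p under 0.05. Abcd3 and Ech1 reach 1.87 and 1.73 in tissue RPF and 0.10 and 0.35 in culture RPF, and Cat is below 0 in culture only.

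The brown against white difference was not the same in tissue and in culture. The tissue difference exceeded the day 5 culture difference for 3 of 7 genes in RPF, where 7.45% of all genes did so, and for 5 of 7 in RNA, where 14.5% did. In RPF these were Abcd3 (1.77 ± 0.26, adjusted p = 0.00028), Ech1 (1.38 ± 0.16, adjusted p = 5.7e-05) and Cat (0.67 ± 0.16, adjusted p = 0.010). In RNA they were Abcd3 (1.61 ± 0.17, adjusted p = 5.2e-06), Ech1 (1.53 ± 0.12, adjusted p = 3.2e-07), Pex14 (1.06 ± 0.16, adjusted p = 8.6e-05), Cat (0.54 ± 0.12, adjusted p = 0.0019) and Pex19 (0.54 ± 0.16, adjusted p = 0.011). Abcd3 and Ech1 passed in every alternative in both readouts. Cat RPF lost its call without replicate 1 of BAT (log2 0.57, adjusted p = 0.062), and quantile scaling ended the Cat calls in both readouts, at log2 0.13 in RPF and -0.11 in RNA. The RPF libraries of tissues and cultures were sequenced on different lanes, and this comparison sets a difference within 1 lane against a difference within the other.

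RPF and RNA moved together for most of these genes, and Eff shows where they did not. The enzymes and the transporter carried more footprints per RNA than the typical gene. Log2 Eff of Cat, Hsd17b4, Scp2 and Abcd3 was above 0 in all 6 conditions, from 0.28 for Scp2 in brown day 0 cells to 1.36 for Cat in white day 0 cells, while the median of all genes lay between -0.23 and 0.04. The biogenesis factors sat lower, with Pex14 between -0.90 in BAT and 0.19 in white day 0 cells and Pex19 between -0.45 in BAT and 0.10 in white day 0 cells. Ech1 was between -0.03 and 0.33 in 5 conditions and 1.60 in white day 0 cells, where 95.7% of all genes had a lower Eff.

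In brown cells Eff rose at day 5 for 1 of 7 genes, Hsd17b4 (log2 0.75 ± 0.20, adjusted p = 0.0069, background 16.1%), whose RPF in brown day 0 cells rests on 47 and 27 reads. In white cells Eff fell for 2 of 7, Ech1 (-1.27 ± 0.14, adjusted p = 2.1e-06) and Cat (-0.43 ± 0.14, adjusted p = 0.032), where 16.3% of all genes fell. The Cat call ended without any 1 of 7 of the 8 libraries (log2 -0.49 to -0.38). At day 0 Eff was lower in brown than in white cells for 4 of 7 genes, where 22.2% of all genes were lower. These were Ech1 (-1.41 ± 0.14, adjusted p = 8.0e-07), Scp2 (-0.83 ± 0.22, adjusted p = 0.0075), Hsd17b4 (-0.55 ± 0.20, adjusted p = 0.043) and Cat (-0.45 ± 0.14, adjusted p = 0.019). Hsd17b4 lost this call with the replicate block (adjusted p = 0.051) and without any library but replicate 1 of brown day 0 RPF (log2 -0.58 to -0.22), and Cat without replicate 2 of brown day 0 RNA or replicate 1 of white day 0 RNA (-0.42 and -0.40). These Eff differences were not particular to the 7 genes. Of 17 mitochondrial beta-oxidation genes, Eff fell for 12 in white cells (median log2 -0.66) and was lower for 14 in brown day 0 cells (median -1.18). Of 10 adipocyte markers, it fell for 9 in white cells (median -4.36) and was lower for 9 in brown day 0 cells (median -2.68). In both lists 0 genes passed the other way. In 50 genes whose RNA rose most, white day 0 RPF stood at 9.95% of day 5 RPF, against 2.40% in RNA. These genes were picked on the RNA rise in the same libraries, so a low RNA share is partly built in. How much of the excess comes from this choice was not tested. When the excess of 7.55% of the day 5 level (1.89% in brown cells) was taken off day 0 RPF, Ech1 kept its calls, and Cat turned to log2 0.68 for the white day 5 change in Eff and to 0.52 for brown against white at day 0. Scp2 (log2 -0.57) and Hsd17b4 (log2 -0.27) then lost their calls for brown against white at day 0, and Ech1 Eff rose in brown cells (log2 0.51, adjusted p = 0.019).

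At day 5 no gene of the 7 passed for Eff between brown and white cells (0 of 7, limma, 0 at an unadjusted p under 0.05 and 0 by voom), where 7.41% of all genes did. Between BAT and eWAT none passed either (0 of 7, with 1 at an unadjusted p under 0.05 and 0 by voom), where 4.05% did. Each tissue pool was divided between the RPF and RNA libraries, but the labels do not tie replicate numbers to pools. With the replicate number of the tissue libraries as a term, 0 of 7 passed as well. The gene at an unadjusted p under 0.05 between the tissues was Pex19, lower in BAT (log2 -0.52 ± 0.20, interval -0.95 to -0.10, adjusted p = 0.19, limma). Over its 18 alternatives this difference ran from log2 -0.65 to -0.39. The widest of these tissue intervals was that of Pex14, at -0.94 to 0.60, and that of Ech1 ran from -0.49 to 0.10. The day 5 change in Eff was larger in brown than in white cells for Ech1 alone (1.36 ± 0.20, adjusted p = 0.00019, background 9.79%). Without replicate 1 of brown day 0 RPF, 4 of 7 genes passed that test, and without replicate 2, 2 of 7 passed.

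**Figure D4:**
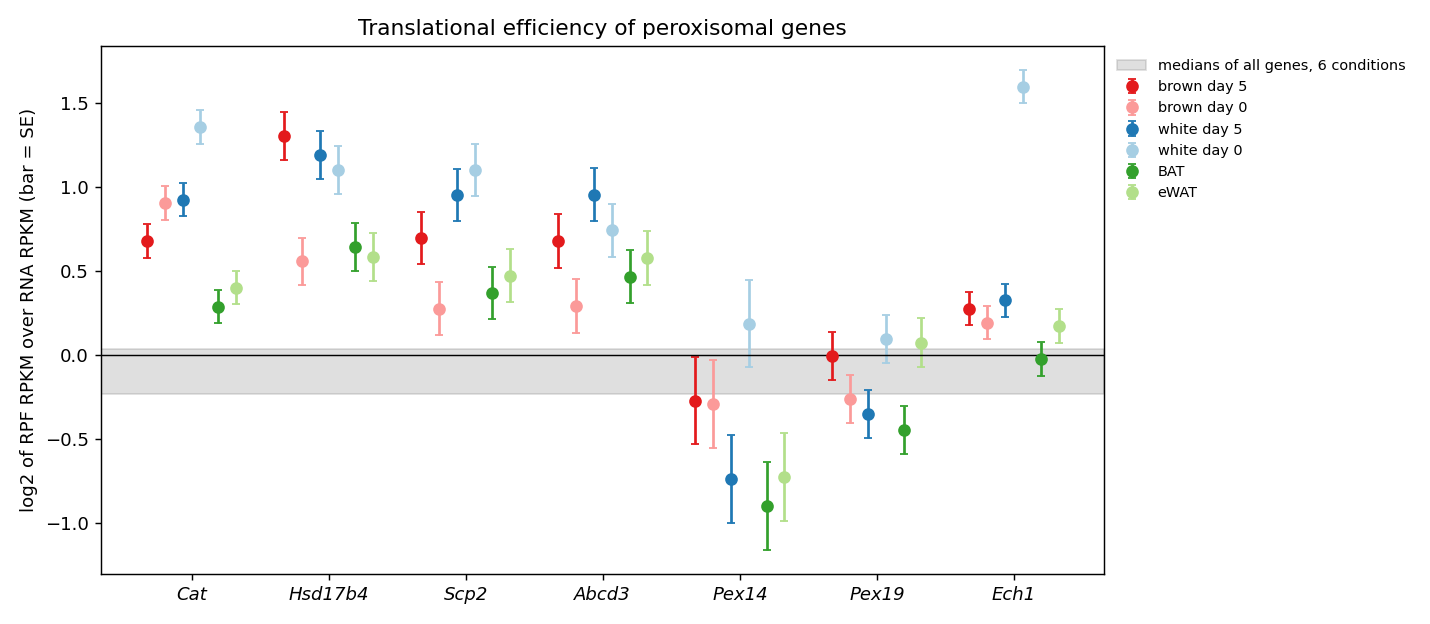
Log2 of RPF RPKM over RNA RPKM of the 7 genes in the 6 conditions (points, with the SE as error bar) beside the range of the medians of all genes over the conditions, -0.23 to 0.04 (grey band). Cat, Hsd17b4, Scp2 and Abcd3 lie above 0 in every condition, and Ech1 stands at 1.60 in white day 0 cells.

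The 7 genes were also set beside each other over the 12 libraries of an assay, as a description. Each gene's log2 profile was compared with the mean profile of the other 6. In RNA r was 0.99 for Ech1, 0.97 for Hsd17b4, 0.95 for Pex19, 0.94 for Cat, 0.93 for Scp2, 0.76 for Pex14 and 0.54 for Abcd3. In RPF Abcd3 (0.61) and Pex14 (0.53) were again the least like the rest. The 5 genes outside the lists with RNA profiles most like the mean of the 7 were Pccb and Acad9, which act in mitochondrial breakdown of propionate and in assembly of complex I, Acaca, the first enzyme of fatty acid synthesis, Mfn2, a mitochondrial fusion protein, and Taldo1 of the pentose phosphate pathway (r = 0.996 to 0.997). In RPF they were Bckdha of branched-chain amino acid breakdown, Ndrg2, Cluh, which binds mRNAs of mitochondrial proteins, Pgd of the pentose phosphate pathway and Mdh1, the cytosolic malate dehydrogenase (r = 0.986 to 0.992). The libraries share depth and the step between day 0 and the other conditions, so high values are common in such a comparison.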

How the data were processed

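RPF and RNA were measured in 24 libraries, 2 in each of 12 groups. The submitters' notes name cutadapt 1.8.3, TopHat2 2.0.9 and Bowtie 1.0.0. The authors kept 1 isoform per gene, the most abundant, mapped reads to it without mismatches and at 1 site per read, and deposited RPKM over the coding sequence. The genome build is not given in the sources used here. The reads, the mass spectra and a sheet of sample names were not used.

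The 5035 genes with a value above 0 in all 24 libraries were kept. Rows with gaps were left out, since values in them seem displaced (Ucp1 is listed at 34.4 and 5180 RPKM in the RPF duplicates of eWAT). Log2 RPKM without a pseudocount was fitted with limma 3.58.1 in R 4.3.3, with a trend, over the 12 libraries of an assay. Eff was tested as an assay by group interaction in a fit to all 24 libraries. Benjamini-Hochberg adjustment ran over 5035 genes, at a threshold of 0.05, and intervals are at 95%. The SE rests on 1 variance per gene over all libraries of the fit, so it is not the spread of the duplicates compared. Reads were recovered from RPKM and coding length: 4766 of 4841 genes gave whole reads in every library, within 0.05 of a read. The fits were tested on simulated data. Python 3.11.15 with numpy 2.4.6, pandas 2.3.3, scipy 1.17.1 and matplotlib 3.10.9 was used.

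Named genes are the 7 kept genes, up to 4 further peroxisomal genes per comparison, assay and direction with the smallest adjusted p, and the 5 genes per assay with the most similar profile. One gene that this rule names is not reported here. The genes and lists were chosen with earlier results of these data known. Of 13 immune markers 1 had values in all libraries, of 10 endothelial, 8 muscle and 5 mesothelial markers 0 had. Alternatives covered the pseudocount, a mean of at least 5 RPKM, scaling, the replicate block (added later for tissue pools alone), the groups in the fit, the trend, voom, weights per assay, removal of a day 5 part from day 0 RPF, and each library left out.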

Additional observations from a re-analysis of the deposited data

Results flagged for a closer look

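Some brown against white differences were themselves tested for a difference, between day 5 and day 0 or between tissue and culture, and 15 of these tests passed at an adjusted p under 0.05 (limma). The day 5 change was larger in brown than in white cells in RPF for Ech1 (log2 difference 1.71) and Hsd17b4 (0.89), and smaller for Cat (-0.54). Of all genes, 20.0% were called larger and 11.3% smaller. In RNA the change was larger for Ech1 (0.35), where 21.6% of all genes were, and smaller for Cat (-0.74) and Pex14 (-0.48), where 13.7% were. In Eff it was larger for Ech1 (1.36), where 9.79% of all genes were.

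The BAT against eWAT difference exceeded the day 5 culture difference in RPF for Cat (0.67), Abcd3 (1.77) and Ech1 (1.38), and in RNA for Cat (0.54), Abcd3 (1.61), Pex14 (1.06), Pex19 (0.54) and Ech1 (1.53). Of all genes, 7.45% did so in RPF and 14.5% in RNA. The white cultures are subcutaneous and eWAT is visceral, and the RPF libraries of tissues and cultures ran on separate lanes. With 2 libraries a group, no check for a library far from its group could be made.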

How the results depend on the processing

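All 7 genes rose in brown RPF and brown RNA in every alternative. Of 1253 single differences under alternatives other than left-out libraries, 50 lost and 25 gained a call and 9 reversed, and of 896 with a library left out 54 lost, 11 gained and 0 reversed. Quantile scaling turned Cat for BAT against eWAT to log2 -0.58 in RPF and -0.43 in RNA, Scp2 RNA to -0.27 there, and Cat RNA to -0.11 for tissue minus culture. Median-of-ratios scaling turned Scp2 RNA to 0.31 for tissue minus culture. With the day 5 part taken off day 0 RPF, Cat turned to 0.85 for brown against white RPF at day 0, and in Eff to 0.68 for the white day 5 change, 0.52 at day 0 and -0.77 for brown minus white change. Main medians of all genes reached -0.45 (RNA, tissue minus culture), against -0.07 and 0.00 under the 2 scalings.

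Counts of the 7 genes that moved by more than 1.5 times were as follows. RPF brown against white at day 0 went to 1 (of 3) under both scalings, without the trend and with only the groups compared. RPF at day 5 went to 3 (of 1) with only the groups compared and with voom. RPF BAT against eWAT went to 4 (of 2) with voom. RNA at day 0 went to 2 (of 0), and RNA BAT against eWAT to 3 (of 6), with only the groups compared. RNA at day 5 went to 3 (of 6) under median-of-ratios scaling. Eff brown day 5 went to 0 (of 1) under quantile scaling and with only the groups compared, and to 2 with the day 5 part removed. Eff white day 5 went to 1 (of 2) under both scalings and without the trend. Eff at day 0 went to 2 (of 4) under median-of-ratios scaling, with voom and with the day 5 part removed, and to 1 under quantile scaling and with only the groups compared. Eff brown minus white change went to 2 (of 1) with the day 5 part removed.

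With 1 library left out, the count ranged from 1 to 3 for RPF at day 0, 1 to 4 for RPF brown minus white change, 3 to 4 for RNA at day 5, 1 to 3 for RNA brown minus white change, 1 to 2 for Eff brown day 5, 1 to 2 for Eff white day 5, 2 to 6 for Eff at day 0 and 1 to 4 for Eff brown minus white change.

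A replicate block left 7 genes past the threshold in brown RPF and ended 2 calls, Hsd17b4 RNA at day 5 and Hsd17b4 Eff at day 0. For cultures, same-numbered libraries shared only a number. Tissue pools were divided between RPF and RNA, and BAT and eWAT came from the same mice, though the labels do not tie the numbers to pools. The correlation of same-numbered deviations ran from -0.23 to 0.18. A replicate block of the tissue pools alone, chosen after seeing the data, left 2 calls in RPF, 6 in RNA and 0 in Eff for BAT against eWAT and changed no call.

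The day 0 RPF of brown cells limits Pex14 and Pex19 most, at 5 to 13 reads.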
